A study of Cyanidioschyzon merolae strain 10D with 3 samples.

Results

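CMJ100C and CMJ101C are neighbouring genes on chromosome 10 of *C. merolae*, a unicellular red alga of hot and acidic water, and both are described as small heat shock protein genes. They were selected by their locus identifiers and are 2 of the 6823 annotated loci in each deposited table. Polyadenylated RNA was sequenced in 3 libraries, which the labels call biological replicates 1 to 3, from strain 10D grown in liquid culture at 42°C, shaken at 150 rpm under continuous light of 70 μmol. No culture was shifted to another temperature, so the values are levels of the genes during growth, and a heat shock response could not be measured. Neither the deposited tables nor the RefSeq gene table of assembly ASM9120v1 gives a product name for the pair, so its identity as small heat shock protein genes was not checked here.

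Small heat shock proteins are chaperones that work without ATP. They share an alpha-crystallin domain, assemble into oligomers and hold partly unfolded proteins in a soluble state, from which the ATP-driven HSP70 and HSP100 chaperones refold them. In plants and algae many of their genes are weakly transcribed at the usual growth temperature and are strongly induced above it, when heat shock factors bind to heat shock elements in their promoters.

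The locus of CMJ100C spans 295045 to 295575 on chromosome 10 (*C. merolae* Genome Project v3) and is 531 bp long. The locus of CMJ101C spans 295921 to 296637 on the same chromosome and is 717 bp long. Both lengths are whole numbers of codons, 177 for CMJ100C and 239 for CMJ101C, and both are coding lengths without untranslated regions. Coding lengths are the rule in this annotation, since 4784 of the 4803 nuclear loci ending in C, the protein-coding class, have a length that is a multiple of 3. Only 10.2% of these loci are shorter than CMJ100C and 19.5% are shorter than CMJ101C, while the median length is 1272 bp. Neither gene of the pair overlaps another annotated locus.

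The deposited tables carry no strand, and the direction of reading was inferred from the ends of the loci. Every one of the 4803 nuclear loci ending in C is exactly 3 bases shorter than its RefSeq gene at one end and equal to it at the other end. The shorter end is the lower coordinate at 2410 loci and the higher coordinate at 2393 loci. Such a difference arises when the stop codon is left out of a coding locus, and of the RNA loci, which have no stop codon, 520 of 521 loci ending in T and all 49 nuclear loci ending in R that RefSeq lists have both ends equal to RefSeq. By this reading CMJ100C runs toward lower and CMJ101C toward higher coordinates. The pair is therefore divergent, with the starts of both coding regions facing each other across 345 bp.

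The expression level was given by the authors as FPKM. This is the number of fragments divided by a length and by the mapped fragments of the library. The length used need not be the annotated length of the locus. A lower and an upper confidence limit were given with each value. Each limit is 2 SD away from the value, and both cover the counting of fragments but not differences between cultures. Dividing an FPKM by its SD and squaring the quotient gives the number of fragments that the limits imply. These implied fragments summed to 1.30e+07, 2.88e+06 and 2.98e+06 in libraries 1, 2 and 3 over the 4955 loci without overlap, so the values of library 1 have the smallest counting error. The difference between libraries 2 and 3 was smaller than sampling noise, with an index of 0.272 where independent sequencing of one RNA gives about 1, while their index against library 1 was 21.7 and 20.8. They were counted as 1 sample, and means with an SD below have n = 2, library 1 and the mean of libraries 2 and 3.

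CMJ100C was the higher gene of the pair in every library. Its FPKM was 270.1 in library 1 with limits of 259 and 281, 321 in library 2 with limits of 294 and 349, and 327 in library 3 with limits of 300.3 and 354. The limits of library 1 did not meet those of libraries 2 and 3, which nearly coincided. The mean was 297 ± 38.3 (SD, n = 2), and the values rested on 2589, 555 and 596 implied fragments in libraries 1, 2 and 3.

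CMJ101C had almost the same FPKM in all libraries. It was 110.0 in library 1 with limits of 104 and 116, 108 in library 2 with limits of 95.8 and 121, and 109.9 in library 3 with limits of 97.5 and 122. The limits of the 3 libraries overlapped one another throughout. The mean was 109.6 ± 0.573 (SD, n = 2), from 1482, 297 and 315 implied fragments in libraries 1, 2 and 3. The SD over libraries was smaller here than the counting SD within a single library, which was 2.60%, 5.80% and 5.64% of the FPKM in libraries 1, 2 and 3.

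**Figure D1:**
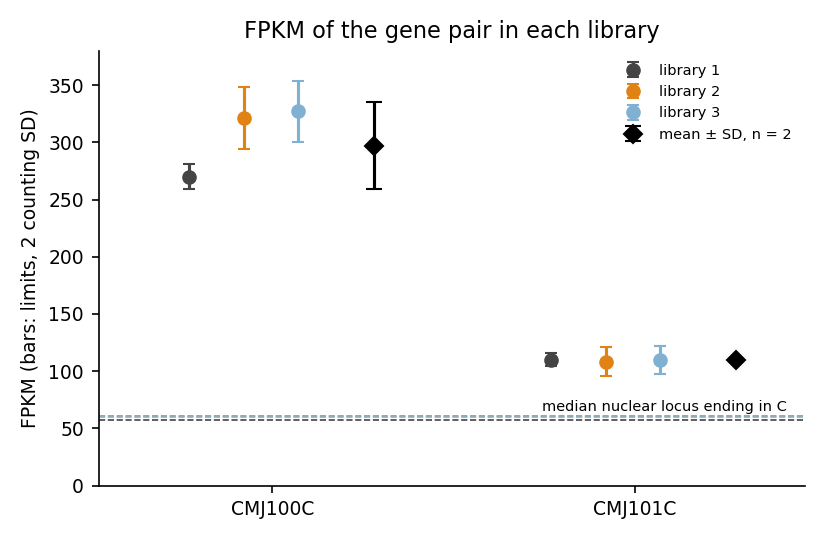
FPKM of CMJ100C and CMJ101C in libraries 1, 2 and 3 (circles, with the confidence limits of 2 counting SD as bars), with the mean and its SD over n = 2 (diamonds) and the median nuclear locus ending in C of each library (dashed lines). CMJ100C lies between 270.1 and 327 and CMJ101C between 108 and 110.0, so the genes do not overlap in any library, and both lie above the medians of 57.7 to 60.5.

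Both genes exceeded the median of the nuclear loci ending in C, whose FPKM was 59.0 ± 1.94 (SD, n = 2). CMJ100C had 4.68, 5.31 and 5.42 times the median in libraries 1, 2 and 3. CMJ101C had 1.91, 1.79 and 1.82 times the median. At 42°C the transcripts of both genes were thus present at more than the level of a typical nuclear gene, and CMJ100C well above it.

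Among the 4803 nuclear loci ending in C, CMJ100C ranked 344 in library 1, 338 in library 2 and 333 in library 3, counted from the highest FPKM. Its rank moved little between libraries although its FPKM was lower in library 1. With the FPKM set to its upper or its lower limit, the rank ran from 320 to 367 in library 1, from 303 to 380 in library 2 and from 300 to 371 in library 3. Thus 92.8%, 93.0% and 93.1% of the loci lay below CMJ100C in libraries 1, 2 and 3, and by the mean of the libraries 92.9% did.

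CMJ101C ranked 1080, 1280 and 1258 in libraries 1, 2 and 3. The FPKM hardly differed between libraries, while the rank did. With the FPKM set to its upper or lower limit, the rank ran from 1017 to 1152 in library 1, from 1133 to 1481 in library 2 and from 1114 to 1449 in library 3, so the rank in library 1 lies outside the ranges of the other libraries. The locus at rank 1080 had 110.0, 126 and 126 FPKM in libraries 1, 2 and 3. Within the limits of CMJ101C lay 134, 347 and 334 other loci, against 46, 76 and 70 within those of CMJ100C. The share of loci below it was 77.5%, 73.4% and 73.8%, and 75.6% by the mean of the libraries.

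**Figure D2:**
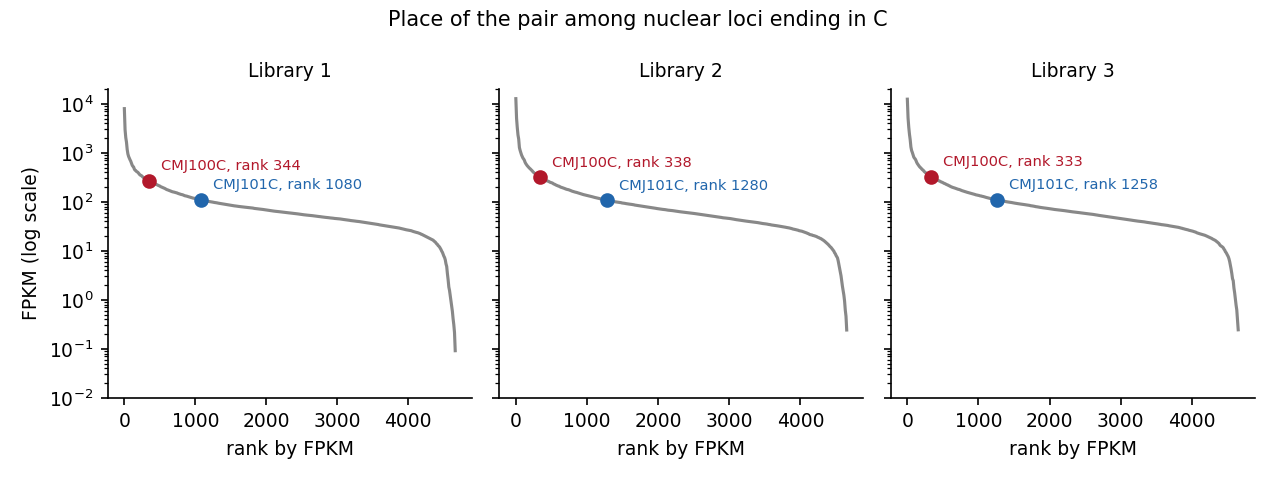
FPKM on a log scale against rank for the nuclear loci ending in C in each library (grey line, loci above 0), with CMJ100C and CMJ101C marked. CMJ100C stands on the steep upper part of the curve at ranks 333 to 344 and CMJ101C on the flat middle part at ranks 1080 to 1280.

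On chromosome 10 alone, which holds 250 loci ending in C, CMJ100C ranked 19, 20 and 20 and CMJ101C ranked 68, 72 and 70 in libraries 1, 2 and 3. Both stood lower among nuclear loci ending in C of like length, from 2/3 to 1.5 times that of the gene, whose median FPKM was 78.0, 95.9 and 96.5 around CMJ100C and 67.1, 74.5 and 74.5 around CMJ101C. Of the 972 loci of like length, 87.0%, 86.5% and 86.7% lay below CMJ100C in libraries 1, 2 and 3. Of the 1509 loci of like length, 72.1%, 65.6% and 66.5% lay below CMJ101C.

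The loci next to the genes in mean FPKM show how finely such ranks can be read. Directly above CMJ100C stood CMT029C with a mean FPKM of 298 ± 61.4 (SD, n = 2) and CMM157C with 299 ± 34.7 (SD, n = 2), and directly below it CMN126C with 297 ± 66.3 (SD, n = 2) and CMA021C with 297 ± 72.5 (SD, n = 2). These SDs are far larger than the differences between the means, so the order of the 5 loci by mean is not resolved. CMA021C, which overlaps another locus, was the only one of these 4 that was higher in library 1 than in libraries 2 and 3, with an FPKM of 348, 243 and 248. Its limits met those of CMJ100C in no library. It stood above CMJ100C in library 1 and below it in libraries 2 and 3. The limits of the other loci met those of CMJ100C in all libraries.

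Around CMJ101C the means lay closer still. CML111C had a mean FPKM of 109.6 ± 38.5 (SD, n = 2) and CMT176C 109.6 ± 24.5 (SD, n = 2) just above it, and CMR168C had 109.2 ± 39.1 (SD, n = 2) and CMI293C 109.1 ± 0.777 (SD, n = 2) just below it. CMI293C was the only one of these 4 with a value as steady as that of CMJ101C, at 109.7, 107 and 109.8 FPKM in libraries 1, 2 and 3. The order of these loci by mean is not resolved either. The limits of CMR168C met those of CMJ101C in 1 library, those of CML111C and CMT176C in 2 and those of CMI293C in all.

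As a yardstick, added after the values were seen, the study's control genes for chromatin immunoprecipitation can be set beside the pair. CmEIF4A (CMK028C), a homologue of a translation initiation factor, reached 345, 361 and 361 FPKM in libraries 1, 2 and 3, and its mean was 1.19 times that of CMJ100C and 3.22 times that of CMJ101C. Cm60S (CMS262C), a homologue of ribosomal protein L23, reached 466, 704 and 695 FPKM, and its mean was 1.96 times that of CMJ100C and 5.32 times that of CMJ101C. The level of CMJ100C was thus below that of both housekeeping genes in each library and nearer to that of CmEIF4A.

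Within each library, the FPKM of CMJ100C was 2.46 times that of CMJ101C in library 1, with a 95% interval of 2.30 to 2.62 from counting error, 2.96 times in library 2 with 2.58 to 3.41, and 2.98 times in library 3 with 2.60 to 3.41. The direction was the same in all libraries and no interval reached 1. CMJ100C held 71.1%, 74.8% and 74.8% of the summed FPKM of the pair. The mean difference of log2(FPKM + 1) was 1.43 ± 0.19 (SD, n = 2). The exact two-sided permutation test, which exchanges the genes within a library, gave p = 0.5 for n = 2 and p = 0.25 with the libraries counted as 3. These are the smallest p-values that this exact test can give with such numbers of libraries, so it could not reach 0.05 here. The sources used here do not state how reads that fit both genes were counted. How alike the sequences of the pair are was not tested.

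The ratio was lower in library 1 than in the other libraries, and so was the ratio of implied fragments, which assume Poisson counting. The implied fragments of CMJ100C were 1.75, 1.87 and 1.89 times those of CMJ101C in libraries 1, 2 and 3. CMJ101C is 1.35 times as long as CMJ100C. One FPKM stood for 1.41 times as many implied fragments in CMJ101C as in CMJ100C in library 1, and for 1.59 and 1.57 times as many in libraries 2 and 3. The length by which the authors' counting divided the fragments is not in the tables used here. Per kilobase of annotated length, CMJ100C had 2.36, 2.52 and 2.56 times the fragments of CMJ101C.

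The difference between libraries was also calculated in both ways. The FPKM of CMJ100C in library 1 was 0.833 times the mean of libraries 2 and 3, and its fragments per kilobase of annotated length, as a share of all fragments at nuclear loci ending in C without overlap, were 1.02 times that mean, so the direction of the difference turned. For CMJ101C the corresponding values were 1.01 and 1.10 times. A lower FPKM in library 1 was common at short loci. The difference of log2(FPKM + 1) between library 1 and the mean of the others was -0.26 for CMJ100C, and its median was -0.28 over the 925 loci of like length with a mean FPKM of at least 1. For CMJ101C it was 0.01, against a median of -0.16 over 1437 loci, 71.2% of which had a lower value. The difference also went with the chromosome. Over loci of 1000 bp and longer its median was 0.51 on chromosome 1, 0.11 on chromosome 10 and -0.40 on chromosome 20. Within chromosome 10 the median was -0.19 over 48 loci of the length of CMJ100C and -0.08 over 81 loci of the length of CMJ101C. The part of length and of chromosome in the values of the pair was not tested. Neither gene differed by more than 1.5 times between library 1 and the others, as 9.48% of the 4621 nuclear loci ending in C with a mean FPKM of at least 1 did, or between libraries 2 and 3, as 0.325% did.

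**Figure D3:**
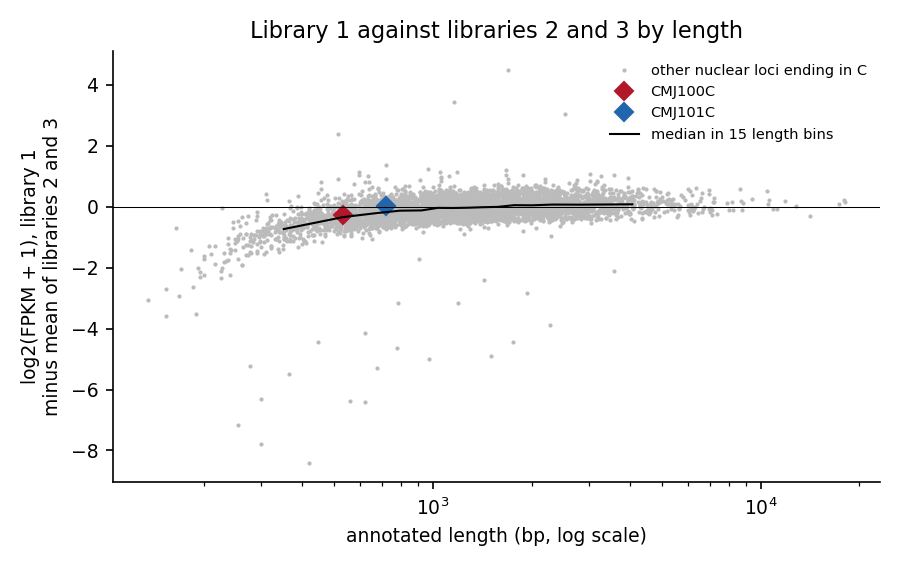
Difference of log2(FPKM + 1) between library 1 and the mean of libraries 2 and 3 against annotated length on a log scale, for nuclear loci ending in C with a mean FPKM of at least 1 (grey points), with their median in 15 bins of length (line). CMJ100C, at -0.26, lies on the falling part of the median line at short lengths, and CMJ101C, at 0.01, lies slightly above the line.

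The loci on either side of the pair were described next. The pair lies in the interior of chromosome 10, where CMJ100C is locus 103 of 329 in order of position. It is separated by 514 bp from CMJ099C, on the side of lower coordinates, and by 576 bp from CMJ102C, on the other side. Both gaps are longer than the 345 bp between the genes of the pair. By the inferred directions CMJ099C converges on CMJ100C and CMJ102C converges on CMJ101C, so their coding regions end toward the pair. The tables used here give no function for the neighbouring loci.

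CMJ099C was at 184, 164 and 169 FPKM in libraries 1, 2 and 3, below CMJ100C in each. CMJ100C was 1.47, 1.96 and 1.94 times higher. On the other side CMJ102C had an FPKM of 45.0, 39.7 and 40.9, and CMJ101C was 2.44, 2.73 and 2.69 times higher. Each gene of the pair thus exceeded the locus that converges on it, in every library. CMJ102C, which is 1332 bp long and reaches to 298545, overlaps CMJ104T, which begins at 298532, over a small part of its length. Whether this overlap affects the FPKM of CMJ102C was not tested.

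Of the 10 annotated loci within 5 places on either side, 3 had a higher FPKM than CMJ100C in every library and 5 had a higher FPKM than CMJ101C. The highest were CMJ331C, with 848, 825 and 821 FPKM in libraries 1, 2 and 3, and CMJ096C, with 608, 890 and 871. CMJ097C followed with 429, 452 and 446. The pair was therefore not the peak of its neighbourhood. Between the levels of CMJ100C and CMJ101C lay only CMJ099C and CMJ098C, the latter with an FPKM of 159, 149 and 151.

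The other neighbours were below both genes. CMJ095C was at 34.9, 37.9 and 38.5 FPKM in libraries 1, 2 and 3, and CMJ330C had 41.5, 54.3 and 56.5. CMJ104T, a locus of the class that RefSeq lists as miscellaneous RNA, had 63.3, 58.5 and 55.9. CMJ103C was listed at 0 in all libraries, but it lies within CMJ104T, where reads may have been counted at the other locus, and no lack of expression was read from it. The median over the 10 loci was 111, 103.6 and 103.8 FPKM, close to CMJ101C, but it differed between the sides. Over the 5 loci at lower coordinates it was 184, 164 and 169, and over the 5 at higher coordinates 45.0, 54.3 and 55.9.

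**Figure D4:**
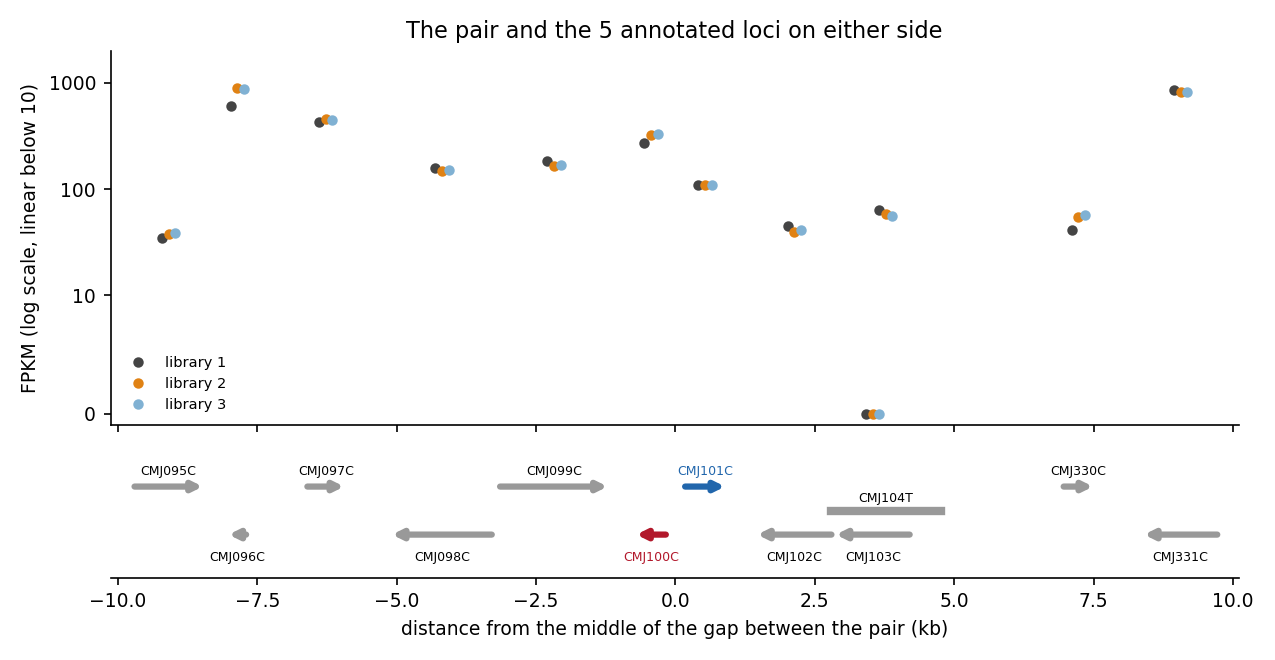
Upper panel: FPKM of CMJ100C, CMJ101C and the 5 annotated loci on either side in libraries 1, 2 and 3, on a log scale that is linear below 10. Lower panel: extent of each locus and its inferred direction (arrows, bar for CMJ104T, whose direction was not read), by distance from the middle of the gap between the pair. CMJ096C, CMJ097C and CMJ331C reach higher FPKM than CMJ100C, and levels drop from CMJ100C over CMJ101C to CMJ102C.

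The neighbourhood alternates in direction from CMJ095C to CMJ102C, so that it contains other divergent pairs to compare with. CMJ098C and CMJ099C are divergent across 148 bp and differed little, with CMJ099C 1.16, 1.10 and 1.12 times as high as CMJ098C in libraries 1, 2 and 3. CMJ096C and CMJ097C are divergent across 1098 bp, with CMJ096C 1.42, 1.97 and 1.95 times as high as CMJ097C. The difference within the pair of CMJ100C and CMJ101C was larger than in both of these in every library. Beyond this stretch, CMJ103C and CMJ330C are divergent across 2761 bp and differed more, by 5.61 in log2(FPKM + 1). That difference rests on the listed 0 of CMJ103C, which lies within CMJ104T, and was not read as a difference in expression.

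Over the genome, the genes of the pair stand close together, and their difference in level is near that of other neighbouring genes. A gap of 345 bp is short, since only 11.5% of the 1585 divergent neighbouring pairs of nuclear loci ending in C had a shorter one, and the median gap was 1663 bp. The absolute difference of log2(FPKM + 1) was 1.43 for the pair and 1.20 for the median divergent pair, and 57.4% of divergent pairs differed less. Over all 4725 neighbouring pairs that do not overlap, 56.8% differed less. Among the 234 divergent pairs with a gap of like length, 231 to 517 bp, the median difference was 0.83 and 67.9% differed less. CMJ100C and CMJ101C were more than 2-fold apart in the same direction in all libraries, as were the loci of 51.4% of all neighbouring pairs and of 50.7% of divergent pairs, so a difference of this size is near the background.

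In most divergent pairs at least one locus stayed at or below the median, as would also be common if neighbours were unrelated in level. Both genes of the pair exceeded the median nuclear locus ending in C, as did both loci in 440 of the 1585 divergent pairs, or 27.8%. In 129 pairs, or 8.14%, both loci reached at least the mean FPKM of CMJ101C over the 3 libraries. Among single nuclear loci ending in C, 75.6% lay below CMJ101C by the mean of the libraries. The shares that unrelated neighbours would give were not calculated, so nothing particular to divergent pairs is read from these shares. They are descriptions of the annotation and its values in one condition, without a test.

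**Figure D5:**
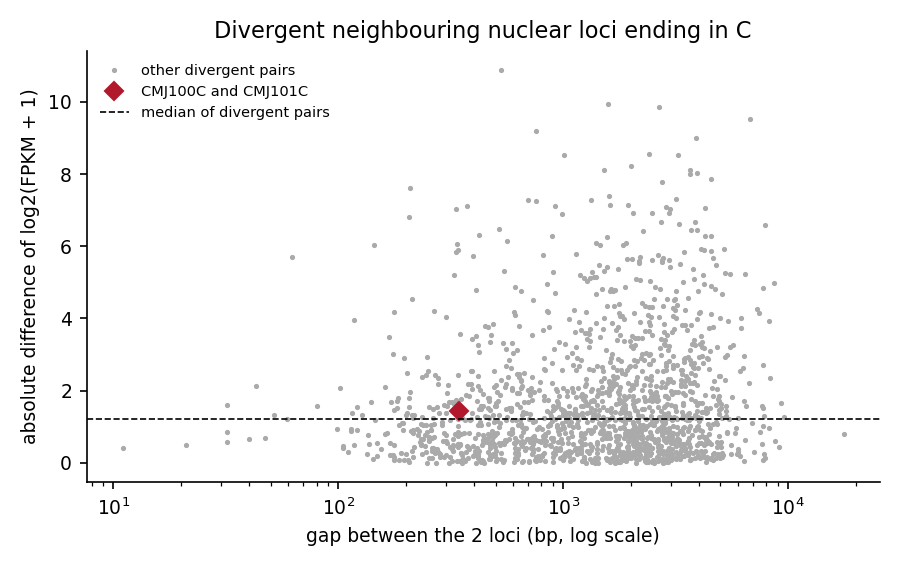
Absolute difference of log2(FPKM + 1) between the loci of each divergent neighbouring pair of nuclear loci ending in C against the gap between them in bp on a log scale (grey points), with the median of these pairs (dashed line) and the pair of CMJ100C and CMJ101C (diamond). At a gap of 345 bp and a difference of 1.43, the pair lies just above the median line of 1.20.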

How the data were processed

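The authors sequenced RNA of strain 10D in late log-phase from both fragment ends on a HiSeq 2000, after TruSeq library preparation. The reads went through FastQC and, in Galaxy, the Tuxedo protocol with *C. merolae* Genome Project v3 as annotation. Program versions, use of strand and treatment of reads with several matches were not given in the sources used here. The authors deposited, for each library, FPKM with its confidence limits as written by Cufflinks. FPKM are not counts, so no count test was run. Implied fragments assume Poisson counting. At nuclear loci ending in C without overlap and with fewer than 50 implied fragments, they lay within 0.05 of a whole number at 65.1%, 61.7% and 59.4% of loci in libraries 1, 2 and 3.

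The index of sampling noise is the mean chi-square of a pair of libraries over the 4381 loci without overlap that had more than 20 implied fragments in each library. Differences were calculated as log2(FPKM + 1), which understates differences between low values, and an exact permutation test over libraries compared the genes of the pair. The index, the implied fragments and log2 ratios were tried on simulated counts, and the exact test on fixed differences of one sign. The simulated limits were made by the Poisson rule itself, so the trial does not show that the authors' limits follow it. RefSeq locus tags matched all 4803 nuclear loci ending in C. The class of a locus is the last letter of its identifier. RefSeq was used for the kind of gene in a class and for which end of a locus was shorter, and its coordinates are not given.

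The members and lists were chosen with earlier results of these data known. Named were the pair, the 5 loci on either side and the 2 loci next above and below each gene in mean FPKM. The control genes and the 2-fold and 1.5-fold limits were added later. A list of other chaperones, related proteins and promoter motifs had been foreseen but were not analysed here, since product names, proteins and genome sequence were not used here. Alternatives were other scalings, pseudocounts, sets of ranked loci and windows, and each library left out in turn. Coordinates count from 1. The tools were scipy 1.17.1, matplotlib 3.10.9, pandas 2.3.3 and numpy 2.4.6 under Python 3.11.15.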

Additional observations from a re-analysis of the deposited data

How the results depend on the processing

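No paired analysis was possible because only 1 condition was sampled, apart from the exchange of the genes within a library in the exact test. The difference between CMJ100C and CMJ101C kept its direction under each of its 7 alternatives, from 1.29 per kilobase of annotated length to 1.56 without library 1, on the log2 scale. Leaving out one library gave a mean FPKM of 296 to 324 for CMJ100C and of 109.1 to 109.9 for CMJ101C, a share of loci below them of 92.9% to 93.0% and of 73.6% to 75.8%, a neighbour median of 103.6 to 107.4 FPKM, and 56.6% to 58.9% of neighbouring pairs with a smaller difference. Without library 2 or 3 the log2 difference of library 1 was -0.28 or -0.25 for CMJ100C and 0.00052 or 0.0207 for CMJ101C.

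Scaled to a common median or 75th percentile, the FPKM of CMJ101C was 110.5 or 112. The share of loci below CMJ100C was 92.5% among loci without overlap, 92.7% where a mean FPKM of 1 or more was required, 87.3% among loci of like length and 91.5% per kilobase of annotated length, and the share below CMJ101C was 69.6% and 70.8% in the last 2 of these. The median of the neighbours was 54.4 FPKM with 10 loci on either side, 129.7 with loci ending in C only and 165 without overlapping loci, so it depends on the window. Of neighbouring pairs with both means at 1 or more 60.5% differed less than the pair, and of divergent pairs with a gap of like length 67.9%. The log2 difference of library 1 was -0.20 for CMJ100C and 0.077 for CMJ101C after median scaling, and turned to 0.034 for CMJ100C and was 0.14 for CMJ101C per kilobase of annotated length. The settings per kilobase, with gaps of like length, with library 1 rescaled and, for the neighbours, without overlapping loci were chosen after seeing the data. Leaving out a library was not planned beforehand for the neighbour median, the neighbouring pairs and the difference of library 1. Counting each library separately for the ratio of the pair was not planned beforehand either. Alternatives for chaperones, related proteins and promoter motifs were not run. A single condition and n = 2 limit all statements to levels at 42°C.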

Other observations

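The level of one gene said little about the level of its neighbour. Across neighbouring pairs of nuclear loci ending in C with a mean FPKM of at least 1 at both loci, Pearson's r of log2(FPKM + 1) was 0.12 over 1482 divergent, 0.13 over 1485 convergent and 0.09 over 1428 tandem pairs. These are descriptions across pairs that share the same libraries and, in part, the same loci. The median difference within these pairs was 1.09 for divergent, 1.00 for convergent and 1.25 for tandem pairs on the log2 scale. CMJ100C is the shorter and the higher gene of its pair, and the shorter locus was the higher in 60.2% of all 1585 divergent pairs.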
